A study of Mus musculus with 4 samples.

Results

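The collagen-modifying enzymes described here are 10 genes of 27998 in the count matrices, chosen by name: the lysyl hydroxylases Plod1, Plod2, and Plod3, the prolyl 4-hydroxylase subunits P4ha1 and P4ha2, and the lysyl oxidases Lox, Loxl1, Loxl2, Loxl3, and Loxl4. Their transcripts were counted by droplet scRNA Seq in fetal thymic lobes taken at E13 to E13.5. In this method each captured transcript carries a unique molecular identifier (UMI) and the barcode of its cell. There was 1 library each for Tbx1+/+ embryos after carrier, Tbx1neo2/neo2 embryos after carrier, Tbx1neo2/neo2 embryos after minoxidil, and Tbx1neo2/neo2 embryos after PGE2, so there were no replicates. Carrier was ethanol, and carrier or drug was injected into the pregnant dams of Tbx1+/neo2 intercrosses on embryonic days 8, 9, and 10. In the neo2 allele, a neomycin cassette sits in a Tbx1 intron and is reported to lower Tbx1 expression without removing it. As an inherited allele it was carried by all tissues of the embryo. Hypoplastic lobes were pooled, and how many embryos each library held was not given in the sources used here. The 3 comparisons set the Tbx1neo2/neo2 carrier library against the Tbx1+/+ carrier library for the genotype, and then the minoxidil and the PGE2 library against the Tbx1neo2/neo2 carrier library, which both drug comparisons share.

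Collagen chains are modified in the endoplasmic reticulum before they fold into a triple helix. Prolyl 4-hydroxylases hydroxylate prolines, which makes the helix stable at body temperature, and lysyl hydroxylases hydroxylate lysines, some of which are then glycosylated or become sites of cross-links. After secretion, lysyl oxidases oxidize lysines and hydroxylysines of collagen and lysines of elastin, and the aldehydes formed join neighbouring molecules into insoluble fibres. Several of these genes, P4ha1, P4ha2, Plod1, Plod2, and Lox among them, are known to be induced by hypoxia-inducible factors in other cells. In the fetal thymus, mesenchymal cells form the capsule and the perivascular sheaths and are the main makers of fibrillar collagen.

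Promoter sequence from RefSeq was at hand for 5 of the 10 genes: Plod1, Plod3, P4ha1, P4ha2, and Loxl4. The 250 bases before the transcript start are shown for 2 genes that hold the motif ACGTG and for 1 gene that does not. ACGTG is 1 form of the core of the hypoxia response element. The form GCGTG was not searched, and the Plod1 sequence printed below contains it. These genes are shown because hypoxia is the best-known inducer of these enzymes and their profiles across cell types were unlike (given further on). The motif searched was ACGTG on either strand, and capitals mark the match as it reads on the printed strand. P4ha1 (GRCm38.p6, chr10:59323046-59323295, plus strand) held 1 match, 16 bases before the start. P4ha2 (chr11:54100674-54100923, plus strand) held 1 match, 78 bases before the start. Plod1 (chr4:147936777-147937026, minus strand) held none.
P4ha1: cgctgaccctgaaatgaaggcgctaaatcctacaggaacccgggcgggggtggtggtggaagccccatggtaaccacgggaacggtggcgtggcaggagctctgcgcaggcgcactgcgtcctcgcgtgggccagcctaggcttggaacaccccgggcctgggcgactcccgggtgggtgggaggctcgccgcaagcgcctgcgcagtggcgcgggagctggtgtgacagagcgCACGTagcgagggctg
P4ha2: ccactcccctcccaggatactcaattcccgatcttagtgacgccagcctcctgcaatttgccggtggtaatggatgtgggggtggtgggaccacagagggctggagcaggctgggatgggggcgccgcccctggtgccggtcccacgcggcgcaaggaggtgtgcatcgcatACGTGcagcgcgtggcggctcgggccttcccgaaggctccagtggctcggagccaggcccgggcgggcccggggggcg
Plod1: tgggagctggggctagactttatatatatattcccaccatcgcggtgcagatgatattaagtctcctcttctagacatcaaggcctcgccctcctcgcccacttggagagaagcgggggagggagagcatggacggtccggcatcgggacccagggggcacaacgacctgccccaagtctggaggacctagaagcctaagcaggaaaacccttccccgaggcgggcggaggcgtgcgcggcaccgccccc

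Plod3 held 1 match as well, 54 bases before its start, and Loxl4 held none. Over all 32851 RefSeq promoters of this length, 5444 (16.6%) held the motif. A match describes the letters in this window and shows no use of the site.

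The libraries held 151740600 to 292687940 UMIs, and 3201 to 11474 cells passed the filters, with a median of 14108 (Tbx1neo2/neo2 carrier) to 41084 (minoxidil) UMIs per cell. Between 4 and 32 barcodes were shared by a pair of libraries, at most 0.482% of the smaller one. Of 20 clusters, 6 formed the mesenchymal class, which made up 24.7% of the Tbx1+/+ carrier, 58.6% of the Tbx1neo2/neo2 carrier library, 30.9% after minoxidil, and 20.8% after PGE2. The Tbx1neo2/neo2 carrier library stood apart in its cell makeup. Without integration of the libraries, 5490 of its 6172 mesenchymal cells (89%) fell in 3 clusters that drew at least 95% of their cells from it, while the Tbx1+/+ carrier, minoxidil, and PGE2 libraries had 8, 6, and 15 cells there and shared 4 other mesenchymal clusters with its remaining 682 cells. With integration, its largest mesenchymal cluster was capsular fibroblast-like (2395 of 6259 cells), while in the Tbx1+/+ carrier library it was pericyte-like (782 of 2838 cells). Capsular fibroblast-like, proliferating, and chondrogenic-like cells held most mesenchymal UMIs in the former, and proliferating and pericyte-like cells were the leading 2 in the latter and in both drug libraries. Tbx1 itself, the targeted gene, had 2.28 (95% exact Poisson interval 2.11 to 2.46) UMIs in 1000000 (CPM) in the Tbx1+/+ carrier, 2.33 (2.12 to 2.56) in the Tbx1neo2/neo2 carrier library, 2.46 (2.21 to 2.72) after minoxidil, and 1.14 (0.982 to 1.33) after PGE2 over all cells. Within mesenchymal cells it had 3.33 in the Tbx1+/+ carrier library against 2.13, 3.64, and 2.05. The level over all cells thus did not separate the genotypes. In epithelial cells Tbx1 was higher in the wild type, with 2.33 (2.05 to 2.63) CPM against 1.1 (0.801 to 1.48), 1.37 (1.08 to 1.7), and 0.331 (0.202 to 0.511) in the 3 mutant libraries. In endothelial cells, where Tbx1 was highest, the wild type was instead the lowest. The levels there were 11.7 (9.62 to 14.1) CPM against 16.9 (13.9 to 20.4), 19.1 (15.7 to 23), and 24.9 (20 to 30.5). Hematopoietic cells had 0.662 (0.5 to 0.86) CPM in the wild type against 1.3 (0.923 to 1.79), 0.975, and 0.31. Reads of the cassette allele were not told apart from wild-type reads.

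Levels of the 10 genes are likewise CPM, here a gene's UMI sum in all cells of a class for 1000000 UMIs of that class, with exact Poisson intervals at 95% for counting error only. Genes counted as called, higher or lower, where the levels differed at least 1.5-fold and the intervals did not overlap, among genes with at least 20 UMIs in both libraries together. In mesenchymal cells all 10 genes passed this minimum. Relative to Tbx1+/+ carrier mesenchyme, Tbx1neo2/neo2 carrier mesenchyme had higher Lox, Loxl2, P4ha1, and Plod1, that is 4 of 10 genes, and 0 of 10 were called lower. Of all 15983 genes tested, 12.1% were called higher and 11.7% lower. The median log2 ratio of the 10 genes was 0.47, and that of all genes tested was 0.01.

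These calls came with the 3 clusters that held almost only Tbx1neo2/neo2 carrier cells. In the 4 mesenchymal clusters that the libraries shared without integration, a comparison added after the data were seen, none of the 4 calls was left. By construction these clusters hold the mutant carrier cells that grouped with the other libraries. The clusters were pooled without matching their mix. The capsular fibroblast-like cluster among them held 1191 of 2835 wild-type carrier and 223 of 682 mutant carrier cells. It held 471 of 987 minoxidil and 413 of 847 PGE2 cells. The part of this mix in the levels and calls below was not tested. The share of all genes called was also lower there (given below). There Lox had 28.1 (26.7 to 29.6) CPM in the wild-type carrier, 36.3 (32.9 to 39.9) in the mutant carrier, 41.1 (38.9 to 43.4) after minoxidil, and 99.7 (95.6 to 104) after PGE2. PGE2 was by far the highest for Lox in these cells. The wild-type interval lay below the others, but the carriers differed by less than 1.5-fold. Loxl2 had 64.4, 68.4, 69.8, and 74.3 CPM, P4ha1 had 70.2, 71.7, 72, and 81.6, and Plod1 had 29.2, 31.8, 30.2, and 31.6, so the carrier libraries lay close together. In the 5490 mutant carrier cells outside the shared clusters, the level was 134 (131 to 136) CPM for Lox, 132 (130 to 135) for Loxl2, 123 (120 to 125) for P4ha1, and 49 (47.5 to 50.6) for Plod1.

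In the shared clusters 0 of 9 genes tested were called by genotype, where 1.64% of all genes were called higher and 2.92% lower. Minoxidil gave 0 calls as well (4.41% of all genes higher and 1.69% lower). PGE2 gave 3 genes called higher and 0 lower (5.47% and 3% of all genes), which were Lox (1.46), Loxl1 (0.97), and P4ha2 (0.64). With 1 library per condition, a change of level within a cell type and a kind of cell that the mutant carrier library alone contained cannot be told apart, and the class values that follow are those of all mesenchymal cells together.

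**Figure D1:**
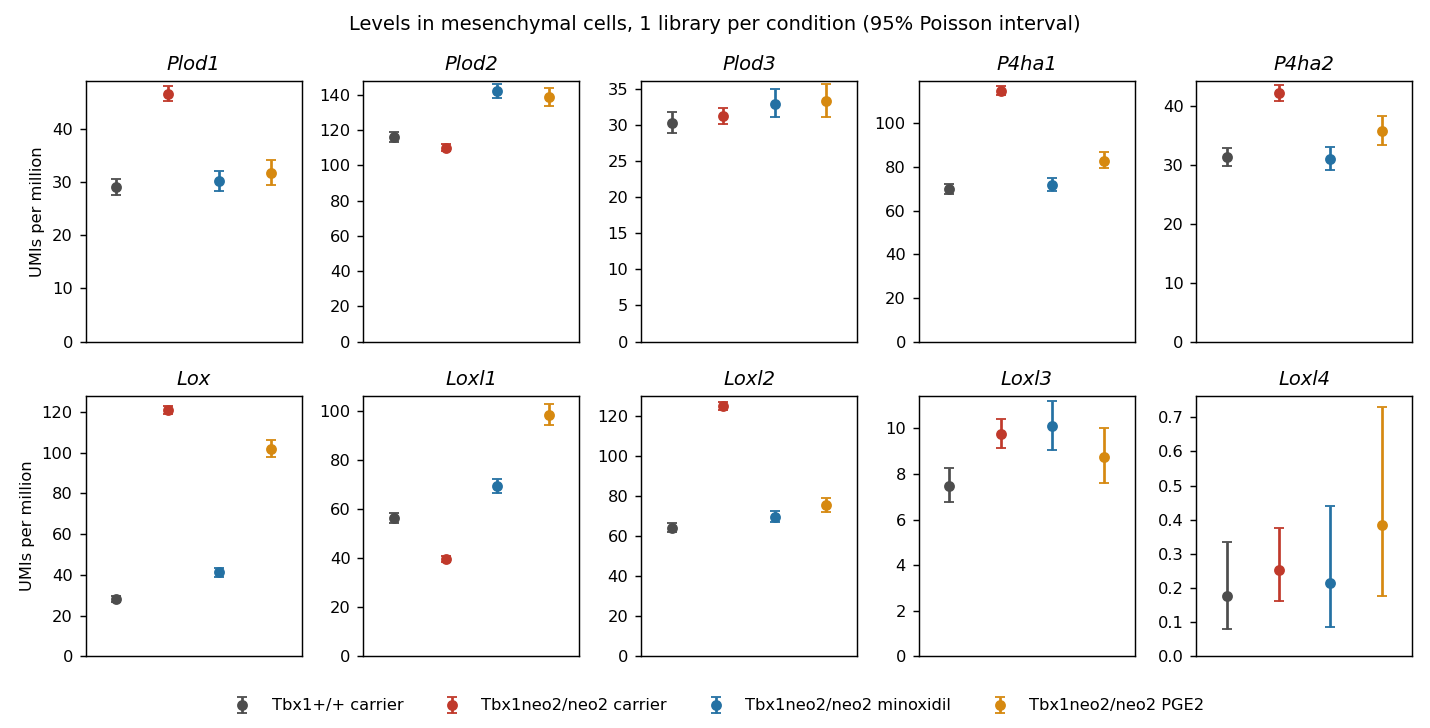
Level of each of the 10 genes in mesenchymal cells, in UMIs per 1000000 (CPM) on a linear axis from 0 that differs between panels, with 1 point per library and bars for the 95% exact Poisson interval. Lox, Loxl2, P4ha1, P4ha2, and Plod1 are highest in the Tbx1neo2/neo2 carrier library, Loxl1 and Plod2 are lowest there, and Plod3 is almost level.

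Among the lysyl hydroxylases, Plod1, which acts mainly on lysines of the helical domain, had 29.2 (27.7 to 30.7) CPM in Tbx1+/+ carrier mesenchyme, 46.7 (45.4 to 48.1) in Tbx1neo2/neo2 carrier, 30.2 (28.4 to 32.2) with minoxidil, and 31.8 (29.6 to 34.2) with PGE2. The Tbx1neo2/neo2 carrier library alone stood out, and the intervals of the Tbx1+/+ carrier and both drug libraries overlapped. The log2 ratio of the mutant to the wild-type carrier library was 0.68 (0.59 to 0.76). Minoxidil was lower than the Tbx1neo2/neo2 carrier by -0.63 on the log2 scale (-0.73 to -0.53), a call, and PGE2 by -0.55 (-0.67 to -0.44), which fell short of 1.5-fold. With cells left out that held UMIs of at least 3 of 7 cartilage genes without any thinning (2371, 2560, 639, and 714 cells were kept), the ratio was 0.10 for the genotype and -0.09 for minoxidil, and the minoxidil call was also lost with cells of at most 5% mitochondrial UMIs (-0.57), with cells gated on Pdgfra and Col1a2 UMIs (-0.55), and with myogenic-like cells counted in (-0.56).

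Plod2, which hydroxylates lysines of the telopeptides and so sets the kind of cross-link, behaved differently. It had 116 (113 to 119) CPM in Tbx1+/+ carrier, 110 (108 to 112) in Tbx1neo2/neo2 carrier, 142 (138 to 146) with minoxidil, and 139 (134 to 144) in PGE2 mesenchyme. It was slightly lower in the mutant carrier library than in the other 3, with log2 ratios of -0.07 to wild type and of 0.37 (0.32 to 0.42) and 0.34 (0.28 to 0.39) for the drugs, none of them a call. Plod3, which also carries glycosyltransferase activity, stayed between 30.3 and 33.3 CPM, and its log2 ratios were 0.04, 0.08, and 0.09.

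Of the prolyl 4-hydroxylase catalytic subunits, P4ha1 had 70 (67.7 to 72.3) CPM in Tbx1+/+ carrier, 115 (113 to 117) in Tbx1neo2/neo2 carrier, 72 (69.1 to 74.9) with minoxidil, and 83 (79.4 to 86.8) in PGE2 mesenchyme. The mutant carrier library was the highest, the Tbx1+/+ carrier and minoxidil intervals overlapped, and PGE2 lay between. The log2 ratio was 0.72 (0.66 to 0.77) for the genotype and -0.68 (-0.74 to -0.61) for minoxidil, both called, and -0.47 (-0.54 to -0.40) for PGE2. Without the cells that held cartilage transcripts by the same unthinned count, these were 0.51 and -0.56, under the 1.5-fold limit. P4ha2 followed the same order with 31.4, 42.3, 31.1, and 35.9 CPM, but its log2 ratios of 0.43, -0.44, and -0.24 were not called.

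Among the lysyl oxidases, Lox, the founding member of the family, had 28.1 (26.7 to 29.6) CPM in Tbx1+/+ carrier, 121 (119 to 123) in Tbx1neo2/neo2 carrier, 41.2 (39 to 43.4) with minoxidil, and 102 (97.7 to 106) in PGE2 mesenchyme. No intervals overlapped, and PGE2 sat near the mutant carrier while minoxidil sat near the wild type. The log2 ratio was 2.10 (2.03 to 2.18) for the genotype, a 4.3-fold difference and the largest among the 10 genes, -1.55 (-1.64 to -1.47) for minoxidil, and -0.25 (-0.31 to -0.18) for PGE2, not a call. Set directly beside each other, minoxidil had less Lox than PGE2 by -1.31 on the log2 scale (-1.40 to -1.21), and PGE2 had 1.86 (1.76 to 1.95) more than the Tbx1+/+ carrier library.

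The share of mesenchymal cells with a Lox UMI followed the levels. After each cell was thinned to 5000 UMIs and shallower cells were left out (16, 91, 9, and 20 cells), the share was 11.8% (10.6 to 13) in Tbx1+/+ carrier, 36.2% (35.0 to 37.4) in Tbx1neo2/neo2 carrier, 14.6% (12.5 to 17) with minoxidil, and 28.0% (25.0 to 31.1) in PGE2 cells (exact Clopper-Pearson intervals at 95%). Without thinning it was 26.7%, 59.6%, 43.3%, and 54.3%. In hematopoietic cells, taken as the background, the thinned share was 0.313%, 3.43%, 0.586%, and 0.348%, and the unthinned share was 2.2%, 8.33%, 2.68%, and 1.67%. The mesenchymal share was far above this background in each library.

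Loxl1, the family member most tied to elastic fibres, ran the other way. It had 56.5 (54.5 to 58.6) CPM in Tbx1+/+ carrier, 39.7 (38.4 to 41) in Tbx1neo2/neo2 carrier, 69.5 (66.7 to 72.4) with minoxidil, and 98.4 (94.5 to 103) in PGE2 mesenchyme. The mutant carrier library was the lowest and PGE2 the highest, with no overlap of intervals. The log2 ratio was -0.51 (-0.58 to -0.44) for the genotype, not a call, 0.81 (0.73 to 0.88) for minoxidil, and 1.31 (1.24 to 1.39) for PGE2, both called higher. The minoxidil call was lost with cells of at most 5% mitochondrial UMIs (0.53), with cells gated on Pdgfra and Col1a2 UMIs (0.44), and without the cells that held cartilage transcripts by the unthinned count (0.27).

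Loxl2, which cross-links collagen IV of basement membranes as well as fibrillar collagen, had 64.4 (62.2 to 66.7) CPM in Tbx1+/+ carrier, 125 (123 to 127) in Tbx1neo2/neo2 carrier, 69.8 (67 to 72.7) with minoxidil, and 75.7 (72.3 to 79.4) in PGE2 mesenchyme. The mutant carrier library stood well above the others. The log2 ratio of 0.95 (0.90 to 1.01) for the genotype, -0.84 (-0.90 to -0.77) for minoxidil, and -0.72 (-0.79 to -0.65) for PGE2 were all called. Without cells that held any UMI of Hox groups 5 to 10 (2601, 1985, 841, and 720 cells were kept) the PGE2 ratio was -0.52, no longer a call, while with such cells counted only after thinning to 5000 UMIs it was -0.70, still past 1.5-fold. Loxl3 had 7.48, 9.74, 10.1, and 8.76 CPM, with log2 ratios of 0.38, 0.05, and -0.15. Loxl4 was close to absent, with 9, 24, 7, and 9 UMIs in the 4 libraries, and gave no call.

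With minoxidil, 4 of the 10 genes (Plod1, P4ha1, Lox, Loxl2) were called lower and 1 (Loxl1) higher than in the Tbx1neo2/neo2 carrier library, where 11.6% of 15763 genes were called lower and 12.4% higher. With PGE2, 1 gene (Loxl2) was called lower and 1 (Loxl1) higher, where 12.5% of 15613 genes were called lower and 11.3% higher. The median log2 ratio over the 10 genes was -0.34 for minoxidil and -0.20 for PGE2, beside -0.02 and -0.06 over all genes tested. Both comparisons use the same carrier library, so the values are not independent of each other. Set against the Tbx1+/+ carrier library, the minoxidil library had log2 ratios from -0.01 (P4ha2) to 0.55 (Lox), and the PGE2 library had 0.80 for Loxl1 and 0.13 to 0.26 for the 5 hydroxylases.

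**Figure D2:**
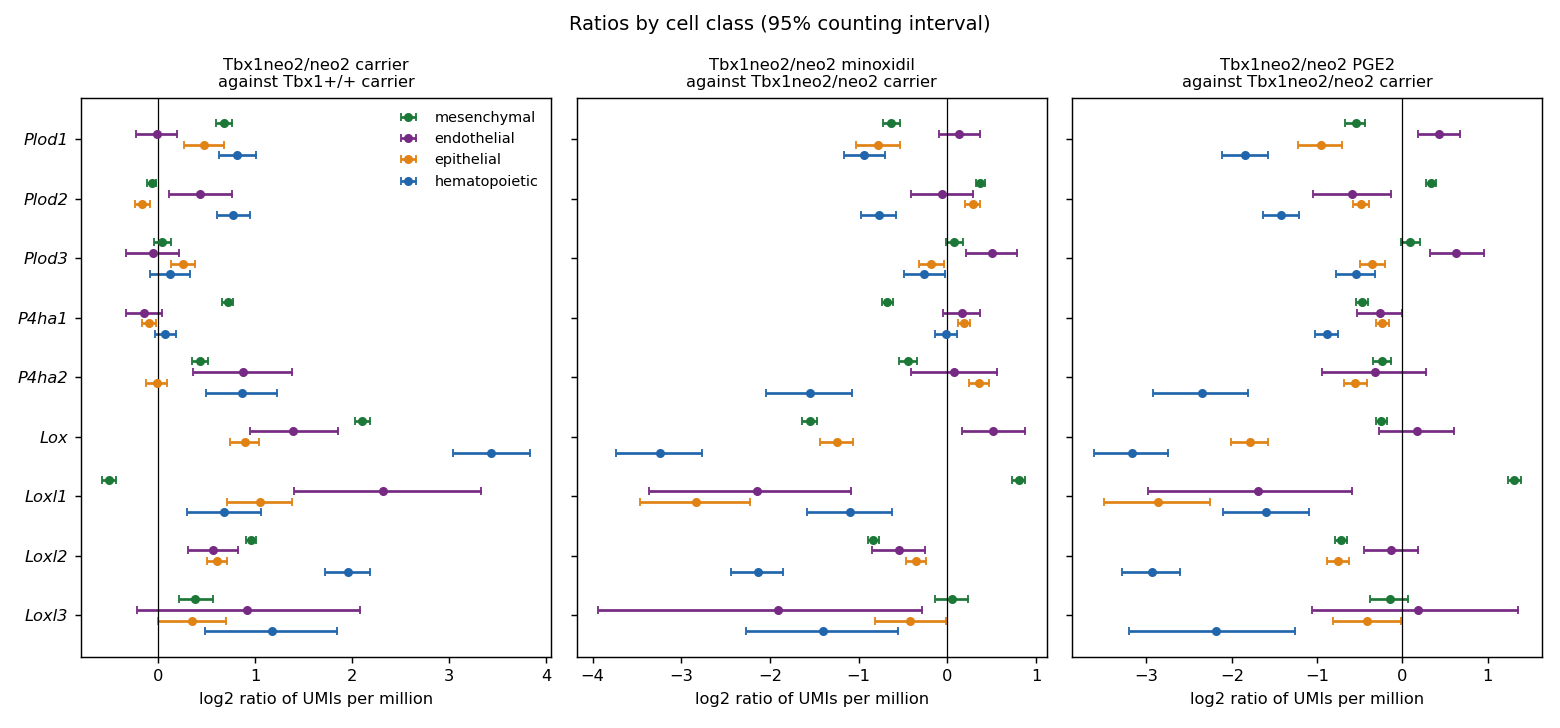
Log2 ratio of CPM for each gene (vertical axis, Loxl4 not drawn) in the 3 comparisons (panels, each with its own horizontal axis) and the 4 cell classes (colours), with bars for the 95% counting interval and a line at 0. In mesenchymal cells Lox has the largest ratio for the genotype (2.10), and Loxl1 is above 0 for both drugs while it is below 0 in the other classes.

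The mesenchymal class changed its makeup between libraries, so the genes were followed in each of its integrated clusters. Integration placed unlike cells side by side: of capsular fibroblast-like cells, 491 of 499 in the Tbx1+/+ carrier library but only 109 of 2395 in the Tbx1neo2/neo2 carrier library fell in the capsular fibroblast-like cluster that the libraries shared without it, and the values by cluster therefore do not compare cells of 1 proven kind. Averaged over libraries, Lox was highest in smooth muscle-like (166 CPM, range 95.1 to 254) and capsular fibroblast-like cells (127, range 61.4 to 210), and lowest in pericyte-like cells (10.8, range 4.43 to 25.1). These ranges overlapped between the leading 2 and did not reach down to the pericyte-like range. Plod2 was highest in capsular fibroblast-like (201, range 93.2 to 266) and chondrogenic-like cells (180, range 143 to 220), whose ranges overlapped. Loxl1 was highest in mesothelial-like (230, range 199 to 260) and smooth muscle-like cells (164, range 67.6 to 248), and Loxl2 likewise (138, range 123 to 161, and 128, range 92.6 to 226). P4ha1 was highest in mesothelial-like cells (122, range 101 to 139), P4ha2 and Loxl3 in chondrogenic-like cells (53.3, range 44 to 65.6, and 12, range 9.62 to 13.9), and Plod3 was even among the mesenchymal clusters (27.8 to 38.6). For Plod1 the order began with endothelial cells (54, range 48.5 to 65.1), followed by chondrogenic-like cells (46.1, range 36.8 to 70.8).

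**Figure D3:**
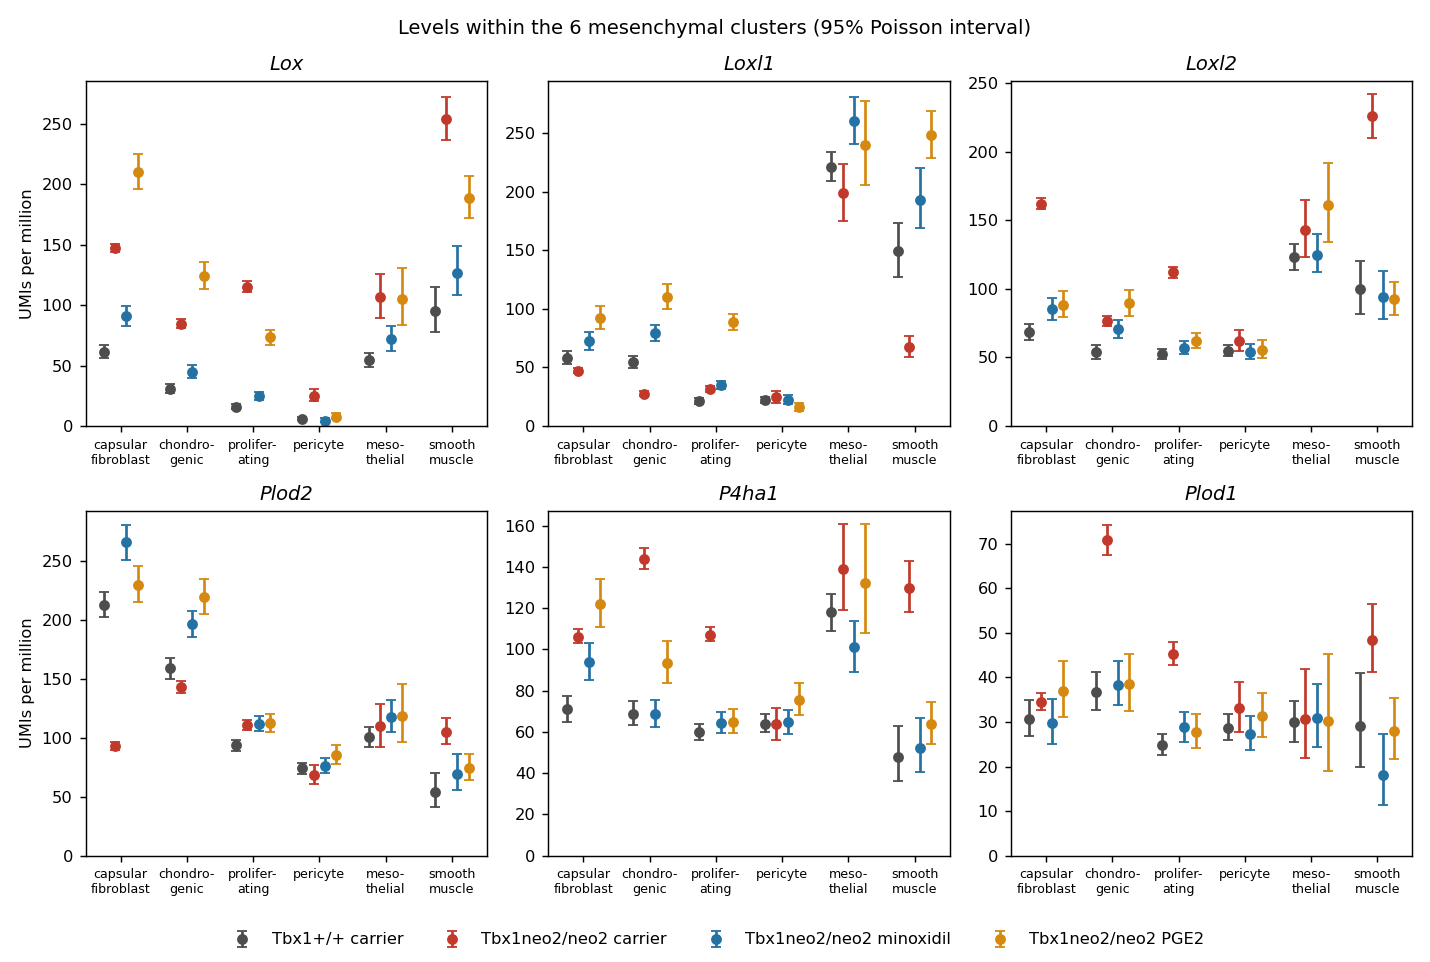
Levels of 6 of the genes in the 6 mesenchymal clusters (horizontal axis), in CPM on a linear axis from 0 that differs between panels, with 1 point per library and bars for the 95% exact Poisson interval. Lox is higher in the Tbx1neo2/neo2 carrier than in the Tbx1+/+ carrier library in every cluster, while Plod2 in capsular fibroblast-like cells is lower (93.2 against 213 CPM).

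Lox was higher in the Tbx1neo2/neo2 carrier than in the Tbx1+/+ carrier library in all 6 mesenchymal clusters, with intervals apart in each. In capsular fibroblast-like cells it had 61.4 (55.9 to 67.4) CPM in Tbx1+/+ carrier, 147 (144 to 151) in Tbx1neo2/neo2 carrier, 90.7 (82.4 to 99.6) with minoxidil, and 210 (196 to 225) with PGE2. In proliferating mesenchymal cells it had 16.1 (14.2 to 18.2), then 115 (111 to 120), 24.8 (21.9 to 28), and 73.3 (67.3 to 79.7) CPM. PGE2 therefore exceeded the mutant carrier in capsular fibroblast-like cells and lay below it in proliferating cells. In chondrogenic-like cells Lox was also highest in PGE2, with 124 (113 to 136) CPM beside 84.6 (80.9 to 88.4) in the mutant carrier. Smooth muscle-like cells had 95.1 (77.8 to 115), 254 (237 to 272), 127 (108 to 149), and 189 (172 to 207) CPM of Lox. Pericyte-like cells stayed low throughout, with 5.89 (4.66 to 7.34), 25.1 (20.6 to 30.4), 4.43 (3.05 to 6.22), and 7.69 (5.49 to 10.5).

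Plod2, close to level over the class, differed between the carriers in opposite directions in capsular fibroblast-like and smooth muscle-like cells. In capsular fibroblast-like cells it had 213 (203 to 224) CPM in Tbx1+/+ carrier, 93.2 (90.1 to 96.4) in Tbx1neo2/neo2 carrier, 266 (251 to 281) with minoxidil, and 230 (215 to 246) with PGE2. The mutant carrier library was far below the other 3 there. In the capsular fibroblast-like cluster shared without integration, the carriers overlapped, with 173 (167 to 180) and 163 (149 to 179) CPM of Plod2, and the capsular fibroblast-like cluster that came almost only from the mutant carrier library had 111 (108 to 114). In chondrogenic-like cells it had 159 (150 to 168), 143 (138 to 148), 197 (186 to 208), and 220 (205 to 235), and in smooth muscle-like cells the order of the carriers turned, with 54.3 in the wild type and 105 in the mutant.

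P4ha1 and Plod1 differed between the carrier libraries most clearly in chondrogenic-like, proliferating, and smooth muscle-like cells. In chondrogenic-like cells P4ha1 had 68.8 (63.1 to 74.9) CPM in Tbx1+/+ carrier, 144 (139 to 149) in Tbx1neo2/neo2 carrier, 68.6 (62.3 to 75.4) with minoxidil, and 93.4 (83.9 to 104) with PGE2, and in smooth muscle-like cells it had 48, 130 (118 to 143), 52.4, and 63.9. Plod1 in chondrogenic-like cells had 36.8 (32.7 to 41.3), 70.8 (67.4 to 74.3), 38.4, and 38.5. In capsular fibroblast-like cells the mutant carrier library no longer led for P4ha1, with 70.9, 106, 93.8, and 122 CPM, and Plod1 was close to level there, with 30.7, 34.5, 29.8, and 37.

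Loxl2 was led by the mutant carrier library in capsular fibroblast-like cells, with 162 (158 to 166) CPM against 68.3, 85.1, and 88.6, and in smooth muscle-like cells, with 226 (210 to 242) against 99.6, 94.2, and 92.6. In chondrogenic-like cells it did not stand out, with 53.9, 76.6, 70.7, and 89.4 CPM. Loxl1 was lowest in the mutant carrier library in chondrogenic-like cells, with 27.3 (25.2 to 29.5) CPM against 54.5 (49.5 to 60), 79 (72.2 to 86.2), and 110 (100 to 121), and in smooth muscle-like cells, with 67.6 (59.1 to 77) against 149 (127 to 173), 193 (169 to 220), and 248 (229 to 269). In proliferating cells PGE2 alone stood out for Loxl1, with 88.8 (82.2 to 95.8) CPM against 21.3, 31.5, and 34.9.

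When the clusters were averaged with the same weights in every library, the ratios kept their direction in all but 1 of the comparisons given here. The genotype ratio was 1.70 for Lox (2.10 as found), 0.85 for Loxl2 (0.95), 0.69 for P4ha1 (0.72), 0.60 for Plod1 (0.68), -0.27 for Loxl1 (-0.51), and -0.26 for Plod2 (-0.07). For minoxidil they were -1.19 for Lox (-1.55), -0.69 for Loxl2 (-0.84), -0.58 for P4ha1 (-0.68), -0.57 for Plod1 (-0.63), 0.66 for Loxl1 (0.81), and 0.53 for Plod2 (0.37), and those of P4ha1 and Plod1 then fell just short of 1.5-fold. For PGE2 the Lox ratio moved to 0.01 (-0.25), Loxl1 was 1.13 (1.31), Loxl2 was -0.53 (-0.72) and no longer called, and Plod2 was 0.52 (0.34).

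Cells that carry cartilage transcripts were also separated one by one. A mesenchymal cell was counted as chondrogenic when, after thinning to 5000 UMIs, it held UMIs of at least 3 of 7 cartilage genes, a stricter count than the unthinned one used above. This held for 84 cells (2.98%) of the Tbx1+/+ carrier, 2751 (44.6%) of the Tbx1neo2/neo2 carrier, 41 (4.19%) of the minoxidil, and 19 (2.25%) of the PGE2 library. The chondrogenic-like cluster itself was 86.1% chondrogenic by this count in the mutant carrier library, but 7.34%, 8.51%, and 5.81% in the Tbx1+/+ carrier, minoxidil, and PGE2 libraries. Its name therefore rests on mutant carrier cells. In the mutant carrier library the proliferating cluster was 41.7% chondrogenic, the capsular fibroblast-like cluster 13.7%, and the smooth muscle-like cluster 50%.

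**Figure D4:**
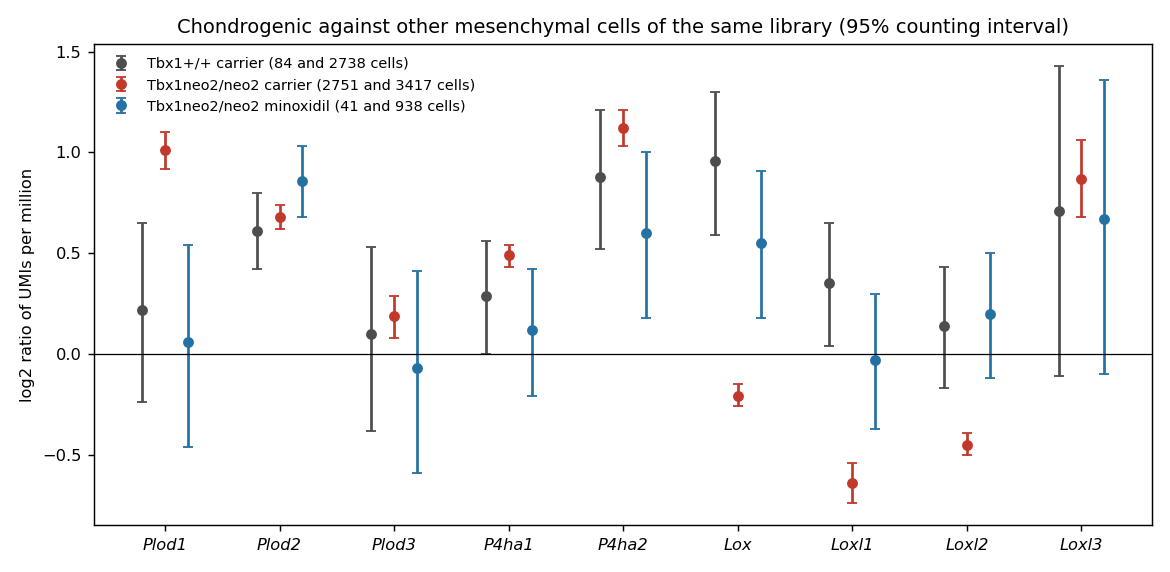
Log2 ratio of CPM in chondrogenic cells to that in the other mesenchymal cells of the same library, by gene, for the Tbx1+/+ carrier, Tbx1neo2/neo2 carrier, and minoxidil libraries, with bars for the 95% counting interval and a line at 0. Loxl4 and the PGE2 library, with 19 chondrogenic cells, are not drawn. In the Tbx1neo2/neo2 carrier library Plod1 (1.01) and P4ha2 (1.12) lie well above 0, and Lox (-0.21), Loxl1 (-0.64), and Loxl2 (-0.45) lie below it.

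In the Tbx1neo2/neo2 carrier library Plod1, P4ha2, and Plod2 were at least 1.5-fold higher in chondrogenic cells than in the remaining mesenchyme. No share over all genes is given for this split. Plod1 had 66.2 against 32.8 CPM (log2 ratio 1.01, 0.92 to 1.10), P4ha2 61.7 against 28.4 (1.12, 1.03 to 1.21), Plod2 141 against 87.7 (0.68, 0.62 to 0.74), P4ha1 138 against 98.6 (0.49, under 1.5-fold), and Plod3 33.5 against 29.5 (0.19). Loxl3 was also higher in them (13.2 against 7.24, 0.87), whereas the 3 lysyl oxidases with more UMIs were lower. Lox had 111 against 128 CPM (-0.21, -0.26 to -0.15), Loxl1 29.9 against 46.7 (-0.64), and Loxl2 103 against 140 (-0.45). In the Tbx1+/+ carrier library, where the chondrogenic cells were only 84, P4ha2 (56.4 against 30.7, log2 ratio 0.88) and Plod2 (175 against 114, 0.61) were likewise higher in them. Lox there was higher too (53.4 against 27.5, 0.96, 0.59 to 1.30), unlike in the mutant, and Plod1 did not separate (33.9 against 29.1, 0.22, -0.24 to 0.65).

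Among cells that were not chondrogenic by this thinned count, the genotype ratio of Plod1 was small (29.1 to 32.8 CPM, 0.18, 0.08 to 0.28), and that of P4ha1 was 0.50. Lox still differed most, from 27.5 to 128 CPM (2.22, 2.14 to 2.31), and Loxl2 had a ratio of 1.13. Plod2 was lower in the mutant carrier library among these cells (-0.38). Minoxidil and PGE2 had log2 ratios of -1.66 and -0.33 for Lox, -1.02 and -0.89 for Loxl2, 0.57 and 1.08 for Loxl1, and 0.65 and 0.63 for Plod2 in the same cells, and for Plod1 minoxidil had -0.12.

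Cells with a UMI of Hox groups 5 to 10, genes of more posterior axial levels, made up 3.65% of thinned mesenchymal cells in the Tbx1+/+ carrier, 58.6% in the Tbx1neo2/neo2 carrier library, 6.64% after minoxidil, and 9.48% after PGE2. Among mesenchymal cells that were neither chondrogenic nor positive for these Hox genes, the genotype ratio was 1.91 (1.81 to 2.01) for Lox, 0.92 for Loxl2, 0.34 for P4ha1, 0.16 for Plod1, and -0.31 for Plod2. The Lox ratio was thus nearly as large without these cells, although it was 0.37 in the clusters shared without integration. The part of the Hox-positive cells in the other ratios was not tested further.

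Other genes of collagen assembly were taken from lists chosen with earlier results of these data known. Their counts are read against the shares of all genes called higher and lower, 12.1% and 11.7% by genotype, 12.4% and 11.6% with minoxidil, and 11.3% and 12.5% with PGE2. Of 14 other genes of collagen modification and folding, 2 were called higher and 0 lower in the mutant carrier library, 0 and 2 with minoxidil, and 0 and 1 with PGE2, which is near or below those shares. The 2 called by genotype, named after their values were seen, were P4ha3, a further prolyl 4-hydroxylase subunit, with 12.5 CPM in Tbx1+/+ carrier and 34.4 in Tbx1neo2/neo2 carrier mesenchyme, and Colgalt2, a collagen galactosyltransferase, with 0.0783 and 3.22. The wild-type Colgalt2 level was close to the 0.0587 CPM that 3 counts give in that library. The collagen chaperone Serpinh1, with 1080 and 835 CPM (-0.37), and Colgalt1, with 77.3 and 91.2 (0.24), gave no call. Of 11 tested genes for propeptide processing and secretion (13 listed), 3 were higher and 1 lower by genotype, 1 and 3 with minoxidil, and 2 and 2 with PGE2. Pcolce, an enhancer of procollagen C-proteinase, had 117 CPM in Tbx1+/+ carrier and 63.5 in Tbx1neo2/neo2 carrier mesenchyme (-0.88), 127 after minoxidil, and 124 after PGE2 (0.97), all called.

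Of the 9 fibrillar collagens, substrates of these enzymes, 3 were called higher and 1 lower by genotype, 1 and 3 with minoxidil, and 1 and 3 with PGE2. Those that differed most were the cartilage collagens. Col2a1 had 0.803 CPM in Tbx1+/+ carrier, 240 in Tbx1neo2/neo2 carrier, 1.38 in minoxidil, and 0.855 in PGE2 mesenchyme, and Col11a1 had 44.2, 236, 50.8, and 59.8. Col1a1 (1485 and 1559 CPM in the carriers) and Col3a1 (2506 and 2271), the main fibrillar collagens of mesenchyme, had log2 ratios of 0.07 and -0.14 and were not called. In the same comparison Lox and Loxl2 were higher by 2.10 and 0.95.

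Elastin and its partners are the other substrate group of lysyl oxidases. Of 13 elastic fibre genes, 2 were called higher and 4 lower by genotype, 5 and 2 with minoxidil, and 8 and 0 with PGE2. The 2 higher by genotype and the 2 lower with minoxidil are near the shares over all genes. Eln, elastin itself, had 146 CPM in Tbx1+/+ carrier, 66.5 in Tbx1neo2/neo2 carrier (-1.13), 270 in minoxidil (2.02), and 1153 in PGE2 mesenchyme (4.12). Fbln5, which binds elastin and Loxl1, had 68, 81.4 (0.26, not called), 115 (0.50, not called), and 367 (2.17). The smooth muscle-like cluster held 10.6% of mesenchymal UMIs in the PGE2 library and 2.16% to 3.73% in the other 3, and the part of that share in these ratios was not tested. The median log2 ratio of the list was -0.28, 0.38, and 0.76 for the 3 comparisons, and that of the 5 lysyl oxidases was 0.51, -0.23, and -0.15.

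Of 25 hypoxia-induced genes, 4 were called higher and 1 lower by genotype, 3 and 4 with minoxidil, and 3 and 7 with PGE2. Apart from the 1 lower by genotype and the 7 lower with PGE2, these counts are near the shares over all genes. Higd1a, a mitochondrial protein induced by hypoxia, had 120 CPM in Tbx1+/+ carrier, 289 in Tbx1neo2/neo2 carrier (1.27), 117 in minoxidil (-1.30), and 112 in PGE2 mesenchyme (-1.37). The glycolytic genes Aldoa (0.02) and Eno1 (0.56) had no call by genotype, and the median log2 ratios of the list were 0.09, -0.19, and -0.27.

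The 10 genes differed in which classes held their UMIs. Mesenchymal cells held 53.7% of Lox UMIs of the Tbx1+/+ carrier library and 88.8%, 69%, and 83.9% in the Tbx1neo2/neo2 carrier, minoxidil, and PGE2 libraries, and 81.4% to 93.9% of Loxl1 UMIs. The mesenchymal share of Plod2 (43.2%, 76.2%, 53.6%, and 56.3%) was close to that of Loxl2 (49.7%, 82.6%, 56.5%, and 57%). P4ha1 was shared more widely. Epithelial cells held 47%, 16.4%, 50%, and 50.4% of its UMIs and mesenchymal cells 22.6%, 70.7%, 27.2%, and 29.9%. The 3 genes whose promoters are printed above spread differently over the classes. In the Tbx1+/+ carrier library P4ha1 had 70, 63.3, 68.5, and 28.6 CPM in mesenchymal, endothelial, epithelial, and hematopoietic cells, P4ha2 had 31.4, 6.45, 22.9, and 2.01, and Plod1 had 29.2, 49.2, 5.26, and 6.65.

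**Figure D5:**
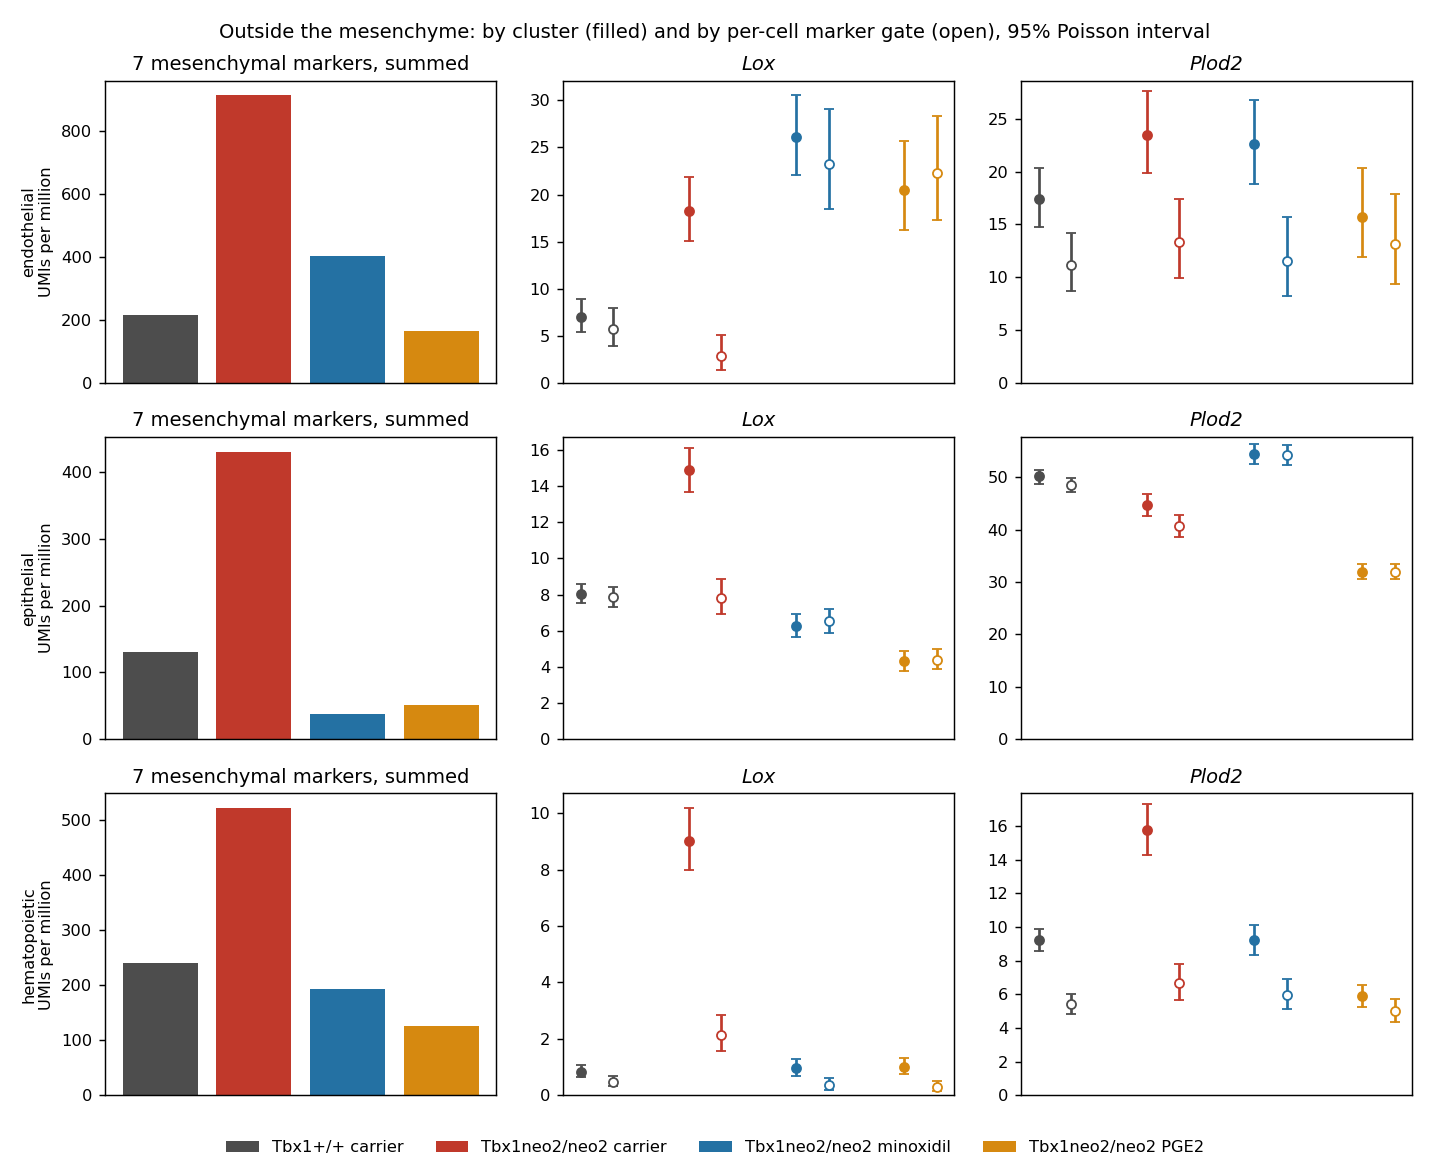
Endothelial, epithelial, and hematopoietic cells (rows of panels from top to bottom), by library (colours), in CPM on linear axes from 0. Bars give the sum of 7 mesenchymal markers, and points give Lox and Plod2 with 95% exact Poisson intervals, filled for cells classed by cluster and open for cells gated on the markers of 1 class. The marker sum is highest in the Tbx1neo2/neo2 carrier library in each class, and its Lox level is lower by gate than by cluster in each (2.81 against 18.3 CPM in endothelial cells).

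Endothelial cells, 98 to 243 per library, expressed Plod1 at 49.2, 48.5, 53.2, and 65.1 CPM and P4ha1 at 63.3, 57, 63.7, and 47.6 in the order Tbx1+/+ carrier, Tbx1neo2/neo2 carrier, minoxidil, and PGE2. Plod2 was low there (17.4, 23.5, 22.6, and 15.7), and Loxl4 had no UMI. With 9 genes tested, 3 were called higher by genotype (P4ha2 0.87, Lox 1.39, Loxl1 2.32), where 7.67% of all genes were called in either direction. Minoxidil gave 1 call (Loxl1, -2.15, with 8.72% of all genes called) and PGE2 2 (Plod3 higher, 0.63, and Loxl1 lower, -1.69, with 10.3% called). The Loxl1 calls rest on only 13, 45, 9, and 8 endothelial UMIs, in the same order of libraries. Lox had 6.99 (5.39 to 8.9) CPM in Tbx1+/+ carrier, 18.3 (15.1 to 21.9) in Tbx1neo2/neo2 carrier, 26.1 (22.1 to 30.6) with minoxidil, and 20.5 (16.2 to 25.7) in PGE2 endothelial cells. Few cells made up these values: 5 cells held 64.6%, 38.1%, 60.4%, and 72.4% of the endothelial Lox UMIs. The 7 mesenchymal markers summed to 215, 913, 403, and 165 CPM in these cells, with all 7 detected in each library. In cells gated on Cdh5 and Pecam1 UMIs and on none of the other classes' markers, Lox had 5.67, 2.81, 23.3, and 22.3 CPM, so the order of the carrier libraries turned, with overlapping intervals, while both drug libraries stayed higher.

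Epithelial cells, mostly thymic epithelial cells (TECs), expressed P4ha1 at 68.5, 64, 73, and 54.2 CPM and Plod2 at 50.2 (48.8 to 51.5), 44.7 (42.6 to 46.8), 54.5 (52.6 to 56.4), and 31.9 (30.5 to 33.4). PGE2 was the lowest for both, and neither reached 1.5-fold against the mutant carrier. By genotype 3 genes were called higher (Lox 0.89, Loxl1 1.05, Loxl2 0.60, with 8.6% of all genes called). With minoxidil 3 were called lower (Plod1 -0.78, Lox -1.25, Loxl1 -2.83, with 9.07% called) and with PGE2 4 (Plod1 -0.96, Lox -1.79, Loxl1 -2.86, Loxl2 -0.76, with 9.26% called). The summed mesenchymal markers were 130, 431, 37.7, and 51.1 CPM and so moved with these calls. In cells gated on Epcam and Krt8, Lox had 7.85, 7.83, 6.52, and 4.4 CPM, and the carrier libraries did not separate. What part mesenchymal RNA or cells had in the calls was not tested further.

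Within the epithelium, Lox was a gene of the bipotent or medullary TEC-like cluster, which is marked by Krt5, Krt17, and Krtdap. It had 30.3 (28.3 to 32.5) CPM there in Tbx1+/+ carrier, 30.9 (27.3 to 34.8) in Tbx1neo2/neo2 carrier, 22.7 (20.3 to 25.2) with minoxidil, and 14.6 (12.7 to 16.7) with PGE2. The carrier libraries overlapped. PGE2 was called lower than the mutant carrier (-1.08), and minoxidil was not called (-0.45). The larger cortical TEC-like cluster had 0.979 (0.761 to 1.24), 10.3 (9.13 to 11.6), 0.799 (0.543 to 1.13), and 0.945 (0.672 to 1.29) CPM of Lox, near 1 except in the mutant carrier library. P4ha1 was the reverse, with 78.7, 68.9, 83, and 62.9 CPM in that cortical TEC-like cluster and 39.7, 46.2, 44.6, and 31.5 in the bipotent or medullary TEC-like cluster. Plod2 had 79.7 (76.3 to 83.2), 64.3 (59.1 to 69.9), 72.6 (68.3 to 77), and 43 (39.7 to 46.4) in the latter.

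Hematopoietic cells had low levels of most of the 10 genes apart from P4ha1 (28.6, 30.1, 29.8, and 16.2 CPM). Of 9 genes tested there, 7 were called higher by genotype (13.7% of all genes called), 7 lower with minoxidil (15.7% called), and 8 lower with PGE2 (20.8% called). The largest ratio was that of Lox, with 0.839 (0.655 to 1.06) CPM in Tbx1+/+ carrier, 9.03 (7.97 to 10.2) in Tbx1neo2/neo2 carrier, 0.953 (0.69 to 1.28) with minoxidil, and 1 (0.756 to 1.31) with PGE2. Summed mesenchymal markers were 241, 523, 193, and 126 CPM in the same cells, with all 7 detected. In cells gated on Ptprc alone Lox had 0.485, 2.15, 0.348, and 0.287 CPM. The mutant carrier library also had the largest share of mesenchymal cells, and the part of RNA from them in these levels was not tested further. Macrophage-like cells differed from the T-lineage-like cells in Plod1, with 35.7 (30.9 to 41.1), 43.7 (37.6 to 50.5), 35.4 (28.3 to 43.7), and 21.5 (15.9 to 28.4) CPM against 4.36, 6.15, 4.1, and 2.11.

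The genes of most similar profile were sought over 63 points, which were 17 cell groups in the libraries that held enough of their cells. By Pearson correlation of log2(CPM + 1), the 3 genes nearest to Plod2 were Rcn1 (r = 0.954), Ptprs (0.95), and Efnb1 (0.946), and the 3 nearest to Lox were Me1 (0.906), Ltbp1 (0.905), and Prss35 (0.892). The points share libraries and depth, and the correlations are a description.

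In the GRCm38 annotation (GENCODE vM21), Plod1 lies at chr4:147909753-147936767 (minus strand), Plod2 at chr9:92542223-92608428 (plus), P4ha1 at chr10:59323296-59373304 (plus), P4ha2 at chr11:54100095-54131665 (plus), Loxl1 at chr9:58287738-58313186 (minus), and Loxl2 at chr14:69609068-69695834 (plus). Exons of Loxl2, Loxl3, and Plod3 overlap exons of a gene on the opposite strand, Gm27177, Htra2, and Znhit1, in that order. The RefSeq start used for the P4ha2 promoter lies within the annotated span of the gene. Reads were assigned per gene by the authors' counting, and whether it used strand was not given in the sources used here.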

How the data were processed

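Droplet scRNA Seq was done on 4 libraries of fetal thymic lobes, 1 per condition, assigned to groups by the genotype and treatment in the labels. The authors deposited counts of UMIs per gene and cell barcode, made with Cell Ranger 5.0.1 by alignment to mm10, without normalization. Cells were kept if they had 200 genes or more and no more than 10% mitochondrial UMIs. Libraries were integrated by anchors in Seurat 5.3.0 (R 4.3.3) on 2000 variable genes, drawn from 2300 after leaving out the genes compared, and clustered on 30 dimensions at resolution 0.3. Clusters were named from marker lists scored with 20 CPM added, where a name needed 3 markers in at least 10% of cells, and clusters without one (low UMIs or markers of several classes) entered no class. Doublets were not removed. UMI sums per class and library were scaled to CPM and compared as described in the results, with exact Poisson intervals from scipy 1.17.1 in Python 3.11.15. Cells were not treated as replicates, and no test across embryos was possible. The call rule was also run on simulated counts, with no result given here, and it does not cover variation between embryos or libraries. For a level of 0, the floor was 3 counts.

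The genes named were all 10 enzymes in each class and library. For each pathway list and comparison in mesenchymal cells, the eligible genes were the 2 with the highest and the 2 with the lowest ratio that reached 50 CPM in either library. For the genes of like profile, the 3 highest correlations among genes with at least 500 UMIs and cell groups with at least 20 cells were taken. The enzymes, lists, and marker genes were chosen with earlier results of these data known. Alternatives tried were resolution 0.6, clustering without integration, per-cell marker gates, at most 5% mitochondrial UMIs, removal of Scrublet calls (scanpy 1.11.5), a mean of per-cell CPM, TMM factors (edgeR 4.0.16), removal of proliferating, chondrogenic, or Hox-positive cells, the same mix of clusters, a 2-fold limit, and a minimum of 100 UMIs or none. Removal of the highest 5% of doublet scores, inclusion of the myogenic-like cluster, and restriction to mesenchymal clusters without integration in which no library held 95% of the cells were added after seeing the data. Scrublet called 4.94%, 0%, 2.19%, and 1.81% of the cells of the Tbx1+/+ carrier, Tbx1neo2/neo2 carrier, minoxidil, and PGE2 libraries, so its calls did not work for the mutant carrier library. Promoter sequences came from RefSeq (GRCm38.p6).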

Additional observations from a re-analysis of the deposited data

Results flagged for a closer look

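In cells classed by cluster, Loxl1 had ratios of opposite sign in mesenchymal cells and in the other classes. Minoxidil against the Tbx1neo2/neo2 carrier library gave a log2 ratio of 0.81 in mesenchymal cells, -2.15 in endothelial cells, -2.83 in epithelial cells, and -1.10 in hematopoietic cells. PGE2 gave 1.31 in mesenchymal, -1.69 in endothelial, -2.86 in epithelial, and -1.60 in hematopoietic cells. The endothelial ratios rest on 45 UMIs in the mutant carrier library, 9 with minoxidil, and 8 with PGE2, the last in only 2 cells. With 1 library per condition, the difference between the classes was not tested. Mesenchymal cells held 81.4% to 93.9% of all Loxl1 UMIs, and the level in each of the other 3 classes as a whole was 6.97 CPM or less. In the mesenchymal clusters shared without integration, the ratio was 0.46 for minoxidil and 0.97 for PGE2. The summed mesenchymal markers were also highest in the mutant carrier library in all 3 other classes (913, 431, and 523 CPM). In cells gated on the markers of 1 class, Loxl1 had 0.833, 0.255, 0.295, and 1.64 CPM in endothelial, 2.53, 2.43, 1.73, and 1.18 in epithelial, and 1.13, 0.492, 0.19, and 0.375 in hematopoietic cells of the Tbx1+/+ carrier, Tbx1neo2/neo2 carrier, minoxidil, and PGE2 libraries. The gated endothelial levels rest on 5, 1, 1, and 5 UMIs and were not lower with either drug than in the mutant carrier library.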

How the results depend on the processing

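No paired analysis was possible because each condition had 1 library and the labels carry no replicate numbers, and leaving out a library would leave a condition with none. Over the alternatives, 1353 values stayed on their side of the limit, 124 lost a call, 33 gained one, and 28 changed sign with a call in either setting (14 in endothelial, 4 in epithelial, 4 in hematopoietic, and 6 in mesenchymal cells). Of the 1353, 83 (25 of them mesenchymal) changed sign with no call in either setting, among them Lox with PGE2 at the same mix of clusters (-0.25 to 0.01). The cause was not tested where construction does not show it. For the counts of calls that follow, shares over all genes are given only for the main rule and the clusters shared without integration. Whether a changed count followed a change over all genes was not tested for the other settings.

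In mesenchymal cells the counts of genes called higher by genotype (4), higher and lower with minoxidil (1 and 4), and higher and lower with PGE2 (1 and 1) became 1, 0, 1, 1, and 0 at 2-fold, 2, 0, 2, 2, and 1 without chondrogenic cells (unthinned count), and 0, 0, 0, 3, and 0 in clusters found without integration after those of 1 library were left out. In that last setting, signs turned for minoxidil in Lox (0.18), Loxl2 (0.03), and P4ha1 (0.01), and for PGE2 in Lox (1.46), Loxl2 (0.12), and P4ha2 (0.64). The minoxidil count of higher genes was also 0 at 5% mitochondrial UMIs and under the marker gate, and its count of lower genes was 2 with the same mix of clusters. The PGE2 count of lower genes was 3 at 5% mitochondrial UMIs, 3 without Hox-positive cells (unthinned count), and 0 with the same mix. By genotype, 1 gene (Loxl1) was called lower instead of 0 with a mean of per-cell CPM and without proliferating cells.

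In endothelial cells the counts by genotype, with minoxidil, and with PGE2 (3, 1, and 2) changed as follows. By genotype the count was 0 without the highest doublet scores, 0 under the gate, 1 with a mean of per-cell CPM, and 1 without proliferating cells. With minoxidil it was 3 without Scrublet calls, 0 at 100 UMIs, 3 at 5% mitochondrial UMIs, 3 with a mean of per-cell CPM, and 2 without integration. With PGE2 it was 1 at 2-fold, 1 at 100 UMIs, and 0 without the highest doublet scores. In epithelial cells (3, 3, and 4) the counts were 0, 0, and 2 without the highest doublet scores and under the gate, 1 and 2 at 2-fold by genotype and with PGE2, 0 by genotype without integration, and 1 with PGE2 without proliferating cells. In hematopoietic cells (7, 7, and 8) they were 3, 2, and 4 under the gate, 2, 2, and 4 without proliferating cells, 3 and 4 without the highest doublet scores by genotype and with minoxidil, 3 by genotype at 2-fold, and 3 with minoxidil at 5% mitochondrial UMIs.

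Signs that turned were, under the marker gate, endothelial Lox (-1.01), Loxl1 (-1.71), and P4ha2 (-0.77) by genotype, Loxl1 with minoxidil (0.21), and Loxl1 (2.68), Loxl2 (0.76), and P4ha2 (1.62) with PGE2, epithelial Lox (-0.00) and Loxl1 (-0.06) by genotype, and hematopoietic Loxl1 by genotype (-1.20). Without the highest doublet scores they were endothelial P4ha2 by genotype (-0.24) and Lox with minoxidil (-1.82), and epithelial Lox (-0.13) and Loxl1 (-0.36) by genotype. Without proliferating cells they were endothelial Lox by genotype (-1.73) and Loxl1 with minoxidil (0.68) and PGE2 (2.07), and hematopoietic Loxl3 by genotype (-1.69), with minoxidil (1.43), and with PGE2 (0.82). Endothelial Lox turned by genotype with a mean of per-cell CPM (-0.28) and with minoxidil at 5% mitochondrial UMIs (-0.94). TMM scaling moved the median of all genes by at most 0.120 on the log2 scale, over 0.1 only for PGE2 in hematopoietic cells.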

Other observations

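The myogenic-like cluster, marked by Myog and Myod1, stood outside the mesenchymal class and held 28 Tbx1+/+ carrier, 313 Tbx1neo2/neo2 carrier, 13 minoxidil, and 11 PGE2 cells. In the mutant carrier library it had 59.5 (54 to 65.5) CPM of Plod2, 44.1 (39.3 to 49.3) of P4ha1, 40.6 (36 to 45.5) of Loxl2, and 10.7 (8.47 to 13.4) of Lox. The parathyroid-like cluster came almost wholly from the Tbx1+/+ carrier library (85 of 86 cells) and had 16.8 (12.2 to 22.5) CPM of Loxl1 there, above the 0.624 (0.453 to 0.838) of the larger cortical TEC-like cluster in the same library. Against the 28 myogenic-like cells of the Tbx1+/+ carrier library, which had 24.3 (12.6 to 42.4) CPM of Plod2, 12.2 (4.46 to 26.4) of Loxl2, and 32.4 (18.5 to 52.6) of Plod1, the mutant carrier cells were called higher for Plod2 and Loxl2 and lower for Plod1 (12.9, 10.4 to 15.8). These calls rest on only 12, 6, and 16 wild-type UMIs of Plod2, Loxl2, and Plod1. Of the other genes 5 were not called and 2 not tested, and no share over all genes is given for this cluster. The parathyroid-like cluster held too few cells elsewhere for a comparison.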
